A study of Mus musculus with 9 samples.

Results

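The heart stores fatty acids as triglyceride in cytosolic lipid droplets and takes much of its fuel from triglyceride carried by lipoproteins. At the capillary wall, lipoprotein lipase (Lpl) frees fatty acids from circulating particles, Gpihbp1 carries the enzyme across the endothelial cell and holds it there, and Angptl4 inhibits it. Inside the cardiomyocyte, the Dgat enzymes add the last fatty acid to make triglyceride, perilipins (Plin) coat the droplet, and the lipases Pnpla2 (adipose triglyceride lipase) and Lipe (hormone-sensitive lipase) release the fatty acids again.

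The genes described here are these 10 (Lpl, Gpihbp1, Angptl4, Pnpla2, Lipe, Plin2, Plin4, Plin5, Dgat1 and Dgat2), taken by symbol from the count matrix of 22851 genes. Counts were analysed for 9 of the 10, and Lipe was not analysed here. All 9 passed the filter on low counts in every comparison, with between 715 counts (Dgat1) and 116661 counts (Lpl) in a library. RNA sequencing covered 9 libraries, 3 of each group, from male C57BL/6J mice aged 6 to 8 weeks at the start. CK mice received citrate buffer. DCM mice received 1 injection of streptozotocin at 180 mg/kg, which destroys pancreatic beta cells, and were studied after 12 weeks. SPM mice received the same streptozotocin and spermine, a polyamine, at 1 mg/kg on every day for 2 weeks before it and on every other day for 12 weeks after it. All mice were fasted overnight before the tissue was taken. Streptozotocin acts on the whole animal, so the model does not separate changes that begin in the heart from those that follow the diabetes elsewhere. No group of mice with spermine and no streptozotocin was analysed here. The methods give 3 mice per group in 1 place and 18 hearts mixed in pools of 6 in another, so p-values measure the spread between these libraries, which may be technical.

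Library totals lay between 29901300 and 39718680 counts, and mitochondrial genes took 13.7% to 16.2% of them for CK, 15.5% to 18.9% for DCM and 21.0% to 21.1% for SPM. The tissue label reads heart, whereas the extraction text deposited for the libraries speaks of retinas. All 6 cardiomyocyte markers with counts were above 1 CPM (counts scaled to the library total) in every library, led by Myl2 and Tnni3, and all 5 retina markers with counts, led by Sag and Gnat1, were below 1 CPM in every library. SPM replicate 2 had the pattern of a mixture of the other SPM libraries. For 66.6% of 14362 genes its level fell between those of the other SPM libraries, a place that any other library took in its own group for at most 40% of genes. It held counts for 30 (1.13%) of 2656 genes that had none in the other SPM libraries, where this share was 15.6% to 35.0% for the remaining libraries. Among the 9 storage and lipolysis genes it lay between the other SPM libraries for 7. Results that rest on SPM are therefore given with and without it.

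The levels per transcript length spanned a wide range. In the deposited FPKM values, counts scaled to transcript length and library total, Lpl was highest in all 3 groups at 719 ± 79.8 in CK, 705 ± 49.0 in DCM and 777 ± 22.4 in SPM (mean ± SD, n = 3). Pnpla2 followed at 299 ± 20.0, 455 ± 25.1 and 325 ± 9.78 FPKM, and Dgat2 came after it at 196 ± 9.20, 202 ± 12.8 and 155 ± 0.968 FPKM. Plin5 came next at 108 ± 8.60, 155 ± 15.7 and 111 ± 6.05 FPKM, and its range over CK libraries overlapped that of Gpihbp1, which had 95.5 ± 11.3, 118 ± 6.87 and 90.6 ± 11.2 FPKM. The order of the droplet coat genes Plin2 and Plin4 was not the same in every group. Plin2 lay above Plin4 in CK (76.8 ± 7.42 and 54.9 ± 3.0 FPKM), their ranges overlapped in DCM (83.1 ± 7.80 and 85.0 ± 9.32 FPKM), and Plin2 lay below Plin4 in SPM (50.4 ± 5.15 and 65.1 ± 4.43 FPKM). Angptl4 was above Dgat1 in CK at 39.9 ± 5.82 FPKM and in DCM at 22.4 ± 3.09 FPKM, and overlapped with it in SPM at 11.6 ± 4.04 FPKM. Dgat1 itself stayed between 12.3 and 12.8 FPKM in the means of the 3 groups. Ranges of all other neighbours in these orders did not overlap.

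**Figure D1:**
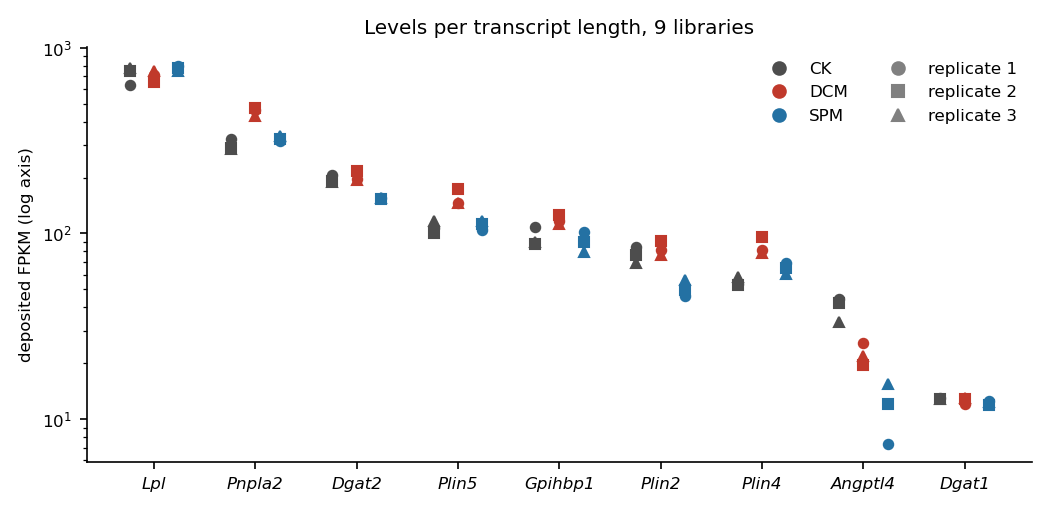
Deposited FPKM of the 9 genes on a log axis, ordered by their mean over 9 libraries, with 1 symbol per library (grey CK, red DCM, blue SPM; shape gives the replicate). Lpl lies highest in every group, and Angptl4 shows the widest separation, from a mean of 39.9 in CK to 11.6 in SPM.

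The genes of droplet lipolysis and droplet coat that are described below are shown first by their promoters. Pnpla2, Plin4 and Plin5 rose in DCM compared to CK and, with Plin2, fell in SPM compared to DCM. Gpihbp1 also rose and fell in these comparisons, but no promoter entry was found for it. Without SPM replicate 2, only the fall of Plin2 was called, and with the GC offset those of Plin4, Plin5 and Gpihbp1 were not. The part of the promoters in these changes was not tested. Each sequence runs from 250 bases before to 50 bases after a gene's start, as RefSeq gives it on GRCm38.p6. Capitals mark every match, on either strand, to AGGTCA (the motif of nuclear receptors such as the PPARs), to TGTTTAC (a forkhead motif), to GGGCGG (the GC box), and to DR1, in which AGGTCA is repeated in the same direction after 1 base and which therefore overlaps with AGGTCA.
Pnpla2 (chr7:141454938-141455237, + strand): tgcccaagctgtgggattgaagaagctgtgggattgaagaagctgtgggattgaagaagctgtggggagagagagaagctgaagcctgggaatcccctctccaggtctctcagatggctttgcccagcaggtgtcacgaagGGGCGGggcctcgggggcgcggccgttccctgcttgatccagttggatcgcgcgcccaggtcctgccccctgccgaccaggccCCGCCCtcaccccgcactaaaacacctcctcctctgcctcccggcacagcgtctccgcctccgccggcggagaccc
Plin2 (chr4:86670010-86670309, - strand): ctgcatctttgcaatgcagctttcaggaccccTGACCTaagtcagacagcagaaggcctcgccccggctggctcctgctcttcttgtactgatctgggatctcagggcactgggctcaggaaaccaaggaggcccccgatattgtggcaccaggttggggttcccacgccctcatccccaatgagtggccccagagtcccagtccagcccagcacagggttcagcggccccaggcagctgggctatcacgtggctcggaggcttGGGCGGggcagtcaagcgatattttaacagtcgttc
Plin4 (chr17:56109733-56110032, - strand): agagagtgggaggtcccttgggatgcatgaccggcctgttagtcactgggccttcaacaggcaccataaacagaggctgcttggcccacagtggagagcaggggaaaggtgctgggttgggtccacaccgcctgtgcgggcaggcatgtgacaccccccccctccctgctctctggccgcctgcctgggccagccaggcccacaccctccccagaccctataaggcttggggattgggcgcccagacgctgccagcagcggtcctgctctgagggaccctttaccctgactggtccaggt
Plin5, upstream start (chr17:56117499-56117798, - strand): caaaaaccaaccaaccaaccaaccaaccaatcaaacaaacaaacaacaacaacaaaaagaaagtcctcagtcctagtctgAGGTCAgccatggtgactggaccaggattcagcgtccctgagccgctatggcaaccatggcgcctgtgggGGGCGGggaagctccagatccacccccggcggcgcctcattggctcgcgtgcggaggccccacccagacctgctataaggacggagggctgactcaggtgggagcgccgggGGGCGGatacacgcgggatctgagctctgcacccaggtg
The Pnpla2 window held GC boxes that begin at -109 and, on the reverse strand, at -26 from the start. The Plin2 window held AGGTCA on the reverse strand at -218 and a GC box 14 bases after the start. The window of the upstream Plin5 start held AGGTCA at -170 and GC boxes at -100 and 11 bases after the start. Plin5 has 2 starts, and the window of the other, not printed, held AGGTCA 13 bases after that start and GC boxes at -239 and -53. The Plin4 window held none of the 4 motifs. Over all 32817 promoters of the table, 16.26% held AGGTCA, 35.63% GGGCGG, 3.647% TGTTTAC and 0.03961% DR1, so AGGTCA and GGGCGG are common in promoters at large. The matches describe letters in these windows and not binding. RefSeq entries were found for 5 of the 10 genes (Pnpla2, Lipe, Plin2, Plin4 and Plin5).

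In DCM compared to CK, the question was what diabetes changed. Pnpla2, Plin4 and Plin5 rose by 1.52 to 1.65-fold, Gpihbp1 rose by 1.32-fold and Angptl4 fell to 0.597 of its CK level. Lpl, Plin2, Dgat1 and Dgat2 did not pass the test. Of the 9 genes, 4 rose, where 5.28% of the 14402 genes tested rose, and 1 fell, where 5.11% of all genes fell. With a fold change of at least 1.5 as well, the limits for a differentially expressed gene (DEG), 3 were upregulated (2.03% of all genes) and 1 was downregulated (2.31% of all genes). For 5 of the 9 the libraries of DCM and CK did not overlap, as for 29.3% of all genes. The median log2 fold change was 0.21 over the 9 genes and -0.002 over all genes tested. Over the 9 it was 0.12 without DCM replicate 2 and 0.11 with library totals, where 6 were higher and 3 lower in place of 8 and 1.

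The comparison of SPM with DCM asked how the diabetic heart differed when spermine was given. Angptl4 fell further, to 0.522 of its DCM level, and Plin2 fell to 0.611. Pnpla2, Plin5, Gpihbp1, Plin4 and Dgat2 fell to between 0.719 and 0.772 of their DCM levels, and Lpl and Dgat1 did not pass the test. None of the 9 rose, where 8.87% of the 14493 genes tested rose, and 7 fell, where 7.76% of all genes fell. As DEGs, 2 were downregulated (0.890% of all genes) and none was upregulated (2.70% of all genes). Libraries did not overlap for 8 of the 9, against 39.5% of all genes. The median was -0.38 over the 9 genes and 0.006 over all genes. These calls depended on SPM replicate 2: without it, Plin2 was the gene that still fell, 1 of the 9, where 0.128% of 14828 genes fell, and the median was -0.37. Here the log2 fold change also went down as transcript GC content went up (rank correlation -0.50 over 14484 genes, a description of genes and not of samples). When each library's trend with GC was taken out as an offset, 3 of the 9 fell (Angptl4, Pnpla2 and Plin2), where 1.84% of all genes fell. The GC content of the longest transcript was 43.5% for Lpl, the 1 gene of the 9 that was higher in SPM. For the 8 that were lower it ran from 50.7% (Angptl4) to 58.9% (Plin5).

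SPM compared to CK shows how far treated diabetic hearts lay from healthy ones. In it, 2 of the 9 genes rose (Plin4 and Pnpla2), where 13.0% of the 14574 genes tested rose, and 3 fell (Angptl4, Plin2 and Dgat2), where 14.3% fell. As a DEG, Angptl4 was downregulated (4.12% of all genes) and none was upregulated (5.08% of all genes). Libraries did not overlap for 6 of the 9, against 46.1% of all genes, and the median was 0.03 over the 9 and 0.002 over all genes. The median over the 9 was 0.12 with the GC offset and -0.07 with library totals. The rank correlation of fold change with GC content was -0.37 in this comparison. Without SPM replicate 2, 3 of the 5 calls were made (Plin4, Angptl4 and Plin2). Every group enters 2 of the 3 comparisons. The DCM libraries enter the first and the second with opposite signs, so the values of a gene in them are given side by side and not as independent results.

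**Figure D2:**
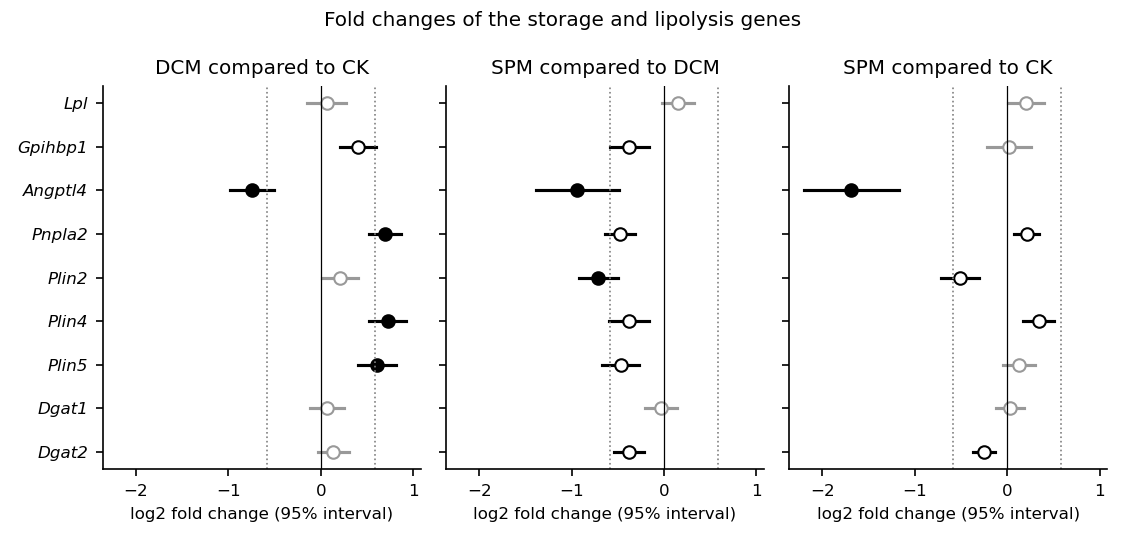
Log2 fold change of each gene with its 95% interval from edgeR in the 3 comparisons (n = 3 libraries per group). Black lines passed an adjusted p of 0.05 and filled points also a 1.5-fold change (dotted lines). Angptl4 lies below 0 in all 3 panels, while Pnpla2, Plin4, Plin5 and Gpihbp1 lie above 0 on the left and below 0 in the middle.

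Among the genes of lipoprotein lipolysis, Lpl (chromosome 8, 68880491 to 68907448, GRCm38) had normalized CPM of 2460.1, 2943 and 3098 in CK, 2943, 2780.5 and 3161 in DCM, and 3357, 3276 and 3176 in SPM. CK and DCM overlapped, and the lowest SPM library lay just above the highest DCM library. The log2 fold change was 0.06 in DCM compared to CK (95% interval -0.15 to 0.27, edgeR adjusted p = 0.754), 0.15 in SPM compared to DCM (-0.02 to 0.32, adjusted p = 0.202) and 0.21 in SPM compared to CK (0.01 to 0.40, adjusted p = 0.0993). At their upper ends these intervals reach 1.21, 1.25 and 1.32-fold. With the GC offset the log2 fold change of Lpl was -0.07 in SPM compared to DCM (adjusted p = 0.592) and 0.04 in SPM compared to CK (adjusted p = 0.724).

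Gpihbp1 (chromosome 15, 75596628 to 75599481) had 171, 137 and 145 normalized CPM in CK, 193, 215 and 190.0 in DCM, and 172, 152 and 135 in SPM. Every DCM library lay above every CK and SPM library, and CK and SPM overlapped. It rose by 0.40 on the log2 scale in DCM compared to CK (SE 0.09, adjusted p = 0.0144) and fell by 0.37 in SPM compared to DCM (SE 0.09, adjusted p = 0.0285). The rise was no longer called without CK replicate 2 or DCM replicate 2 (log2 fold change 0.33 and 0.34) or with limma on FPKM (0.31, adjusted p = 0.0541), and the fall was not called without SPM replicate 2 (-0.36, adjusted p = 0.113), nor without DCM replicate 1 or 2, nor with the GC offset (-0.29, adjusted p = 0.0931). Between SPM and CK the difference was 0.02 (95% interval -0.22 to 0.26). Gpihbp1 is made by endothelial cells, and the summed level of 8 endothelial markers, led by Pecam1 and Cdh5, was 1954 to 2270 CPM for CK, 1852 to 2054 for DCM and 1642 to 1817 for SPM. None of the 8 markers rose and 2 fell in each of the comparisons with DCM, 25.0% where 5.11% and 7.76% of all genes fell. They were Tek and Tie1 in DCM compared to CK, and Tie1 and Cldn5 in SPM compared to DCM. Pecam1 was higher in every DCM library (434 to 489 CPM) than in CK (386 to 432), without passing the test (0.16, adjusted p = 0.223). Gpihbp1 was higher in DCM than in CK while the marker sum was not, and both were lower in SPM than in DCM. The part of the endothelial markers in these results was not tested. In whole tissue, fewer cells of a type and less RNA per cell cannot be told apart.

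Angptl4 (chromosome 17, 33773750 to 33781830) had 139, 133 and 107 normalized CPM in CK, 85.2, 67.1 and 74.1 in DCM, and 25.0, 40.6 and 52.3 in SPM. The 3 groups formed separate steps, with no overlap between neighbours, and the SPM libraries spread most for their level. It fell by 0.74 in DCM compared to CK (SE 0.11, adjusted p = 0.00103), with a call under all 16 alternatives. The fall of 0.94 in SPM compared to DCM (SE 0.20, adjusted p = 0.0184) was lost when any 1 DCM library or SPM replicate 2 was left out, where adjusted p reached at most 0.0736 and the log2 fold change lay between -1.01 and -0.85. Against CK, Angptl4 in SPM fell by 1.69 (SE 0.23, adjusted p = 0.00186), to 0.311 of the CK level, with a log2 fold change of -1.71 without SPM replicate 2 (adjusted p = 0.00957). The ratio of Lpl to its inhibitor, in FPKM, was 14.2 to 23.3 for CK, 27.8 to 34.3 for DCM and 48.8 to 108.0 for SPM, and the ranges did not overlap. That of Lpl to Gpihbp1 was 5.78 to 8.59, 5.19 to 6.68 and 7.81 to 9.43. Within SPM, Angptl4 was lowest in replicate 1 and highest in replicate 3. Liver markers summed to 356.2 and 14.2 CPM in these libraries, and macrophage markers to 1103 and 663 CPM. Adipocyte (167.9 and 113.3) and skeletal muscle sums (3.64 and 1.92) went the same way. Cardiomyocyte (32291 and 37743), endothelial (1642 and 1817), fibroblast (1576 and 1648) and erythroid sums (744 and 1276) went the other way. Lpl, Gpihbp1 and Plin4 were highest in replicate 1 and lowest in replicate 3. The order of these libraries is therefore not particular to Angptl4. The part of other cells in the fall was not tested.

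Of droplet lipolysis, Pnpla2 (chromosome 7, 141455198 to 141460743), whose promoter with its 2 GC boxes is printed above, had 806, 721 and 729 normalized CPM in CK, 1220.1, 1289 and 1148 in DCM, and 847.5, 870.0 and 902 in SPM. Each DCM library exceeded every library of the other groups, and the SPM libraries lay just above those of CK. The gene rose by 0.69 in DCM compared to CK (SE 0.08, adjusted p = 0.000191) under all 16 alternatives. It fell by 0.48 in SPM compared to DCM (SE 0.07, adjusted p = 0.00956), and by 0.47 without SPM replicate 2, where it was no longer called (adjusted p = 0.0566). Left above CK in SPM was a difference of 0.21 (SE 0.06, adjusted p = 0.0291), which was 0.22 without SPM replicate 2 (adjusted p = 0.116) and 0.12 when libraries were scaled to their totals alone. It was also not called without CK replicate 2, CK replicate 3 or SPM replicate 3 (0.18, 0.19 and 0.19), and with the GC offset it was larger, at 0.37 (adjusted p = 0.00225).

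The genes whose pattern over the 9 libraries was most like that of Pnpla2 were Wnt11, Slc27a1 (a fatty acid transport protein) and Trim54, with root mean square differences of 0.067, 0.077 and 0.079 in log2 CPM around each gene's mean, among 12609 genes of at least 1 CPM. Slc27a1 had 299 to 332 CPM for CK, 482 to 545 for DCM and 348 to 381 for SPM. Plin5 ranked 11, Plin4 29 and Gpihbp1 154 on this list. The remaining storage and lipolysis genes were farther off, with Dgat2 at 1419, Dgat1 at 2368, Plin2 at 4178, Lpl at 5335 and Angptl4 at 12400. For Angptl4 the closest were Pla2g2d, Trp53i11 and Pcdh12 (0.204, 0.210 and 0.224), and for Lpl they were Nemf, Eif1ax and Pdzd8 (0.034, 0.042 and 0.043). These distances describe likeness over 9 libraries that share their groups.

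Among the droplet coat genes, Plin5 (chromosome 17, 56111601 to 56117596), the perilipin of oxidative tissues that holds Pnpla2 and droplets near mitochondria, had 203, 189 and 226 normalized CPM in CK, 289, 355 and 297 in DCM, and 212, 228 and 237 in SPM. DCM lay above both other groups with no overlap, and CK and SPM overlapped. Plin5 rose by 0.60 in DCM compared to CK (SE 0.09, adjusted p = 0.0017) and fell by 0.47 in SPM compared to DCM (SE 0.09, adjusted p = 0.0134). Without SPM replicate 2 the fall was 0.47 (adjusted p = 0.0629), and without DCM replicate 2, the highest library, it was 0.37 and was not called. With the GC offset it was -0.29 and not called (adjusted p = 0.0724). SPM and CK differed by 0.13 (95% interval -0.04 to 0.30, adjusted p = 0.219), and by 0.30 with the GC offset (adjusted p = 0.0297). The FPKM ratio of Pnpla2 to Plin5 stayed within 2.44 to 3.0 for CK, 2.75 to 3.20 for DCM and 2.87 to 3.02 for SPM, with overlap between all groups.

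Plin4 (chromosome 17, 56100591 to 56109803), a perilipin of fat, heart and skeletal muscle, lies 1797 bases from Plin5 on the same strand. It had 293, 288 and 326 normalized CPM in CK, 469, 570.0 and 461 in DCM, and 409, 383 and 357 in SPM. SPM lay between CK and DCM with no overlap on either side. Plin4 rose by 0.72 in DCM compared to CK (SE 0.09, adjusted p = 0.000444), fell by 0.38 in SPM compared to DCM (SE 0.10, adjusted p = 0.028), and was 0.34 above CK in SPM (SE 0.07, adjusted p = 0.0105). Without SPM replicate 2 the last of these was 0.34 (adjusted p = 0.0495), and the fall was 0.37 (adjusted p = 0.113). The fall was also not called without DCM replicate 1 or 2 or SPM replicate 3, nor with the GC offset (-0.25, adjusted p = 0.129). Plin4 shares 17 exon bases with Hdgfl2 on the opposite strand, which had 1343 to 2145 counts, and whether the counting used strand is not given in the sources used here.

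Plin2 (chromosome 4, 86648386 to 86670060), the perilipin found in most cell types, had 151, 138 and 127 normalized CPM in CK, 154, 179 and 147 in DCM, and 88.7, 95.2 and 108 in SPM. CK and DCM overlapped, and every SPM library lay below every other library. The log2 difference in DCM compared to CK was 0.21 (95% interval 0.01 to 0.40, adjusted p = 0.182). Plin2 fell by 0.71 in SPM compared to DCM (SE 0.10, adjusted p = 0.00786) and by 0.51 in SPM compared to CK (SE 0.09, adjusted p = 0.00513), and both falls were called under all 16 alternatives. Without SPM replicate 2 they were 0.69 (adjusted p = 0.031) and 0.49 (adjusted p = 0.030). Relative to the other perilipins, the FPKM of Plin5 was 1.28 to 1.69 times that of Plin2 in CK, 1.78 to 1.92 times in DCM and 2.08 to 2.28 times in SPM, and the ratio of Plin4 to Plin2 was 0.636 to 0.841, 0.996 to 1.04 and 1.08 to 1.51. In both ratios the 3 groups did not overlap. As for Angptl4, the lowest Plin2 level within SPM was in replicate 1 and the highest in replicate 3.

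**Figure D3:**
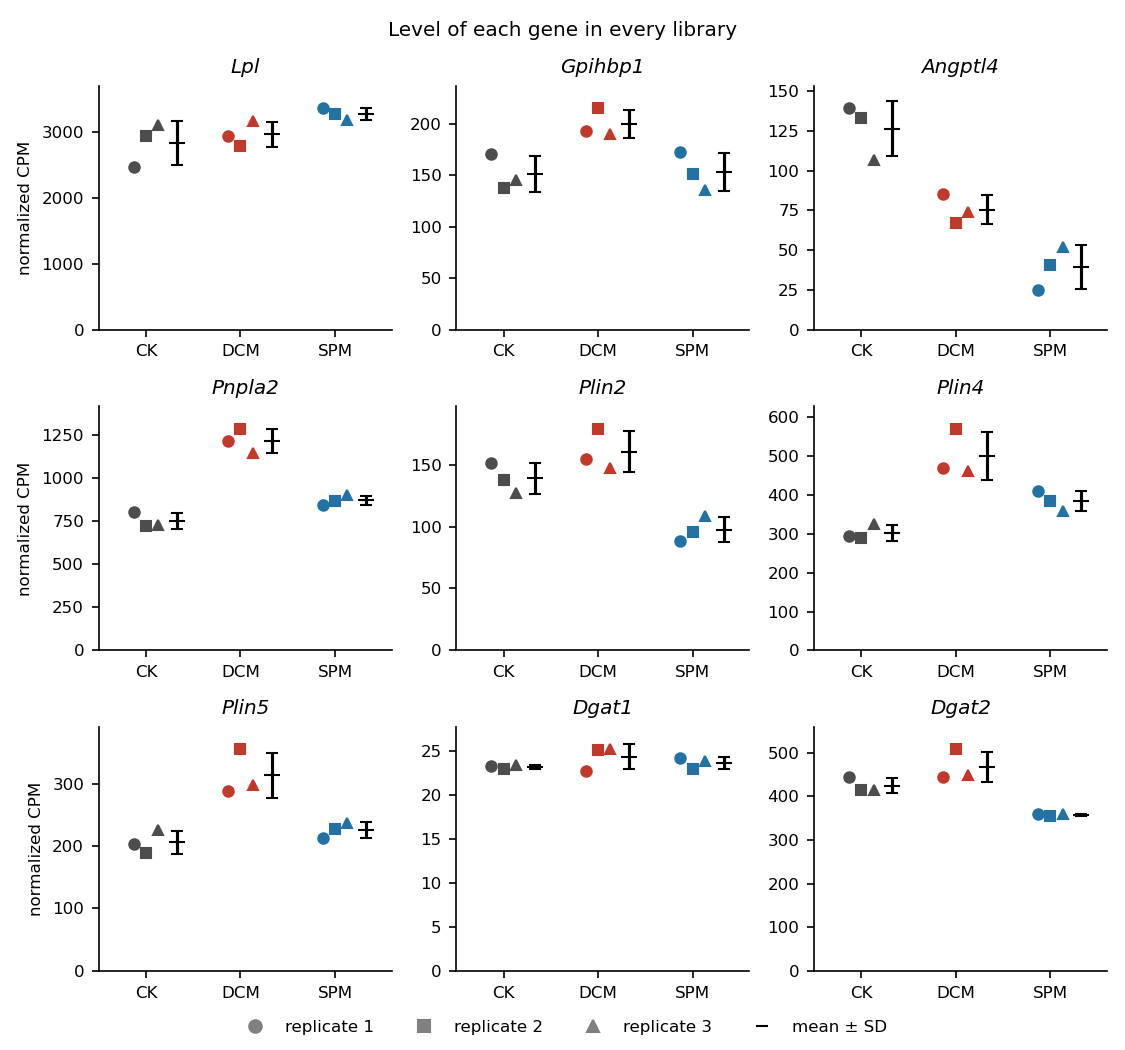
Normalized CPM of the 9 genes in every library, by group, with symbols for replicates 1 to 3 and the mean ± SD (n = 3) beside them; every axis starts at 0. Pnpla2, Plin4 and Plin5 are highest in DCM, Plin2 is lowest in SPM, Angptl4 steps down from CK over DCM to SPM, and Dgat1 stays between 22.8 and 25.3.

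Of triglyceride synthesis, Dgat1 (chromosome 15, 76502015 to 76511953) had 23.3, 23.0 and 23.4 normalized CPM in CK, 22.8, 25.2 and 25.3 in DCM, and 24.2, 23.0 and 23.9 in SPM. The groups overlapped, and the 95% intervals of the log2 fold change were -0.12 to 0.25 in DCM compared to CK, -0.21 to 0.14 in SPM compared to DCM and -0.12 to 0.18 in SPM compared to CK. Dgat2 (chromosome 7, 99153658 to 99182719), which belongs to another protein family and catalyses the same step, had 445, 414 and 416 in CK, 445, 508 and 449 in DCM, and 359, 355 and 359 in SPM. All SPM libraries lay below all others. In DCM compared to CK the log2 difference was 0.14 (95% interval -0.03 to 0.31, adjusted p = 0.318). Dgat2 fell by 0.38 in SPM compared to DCM (SE 0.07, adjusted p = 0.0143) and by 0.25 in SPM compared to CK (SE 0.05, adjusted p = 0.0108). Neither fall was called without SPM replicate 2 (0.37 with adjusted p = 0.083 and 0.24 with adjusted p = 0.0804) or with the GC offset (0.24 and 0.11), and the first was also not called without DCM replicate 2 (0.31). The FPKM of Dgat2 was 14.8 to 16.0 times that of Dgat1 in CK, 14.8 to 16.8 times in DCM and 12.4 to 12.9 times in SPM.

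**Figure D4:**
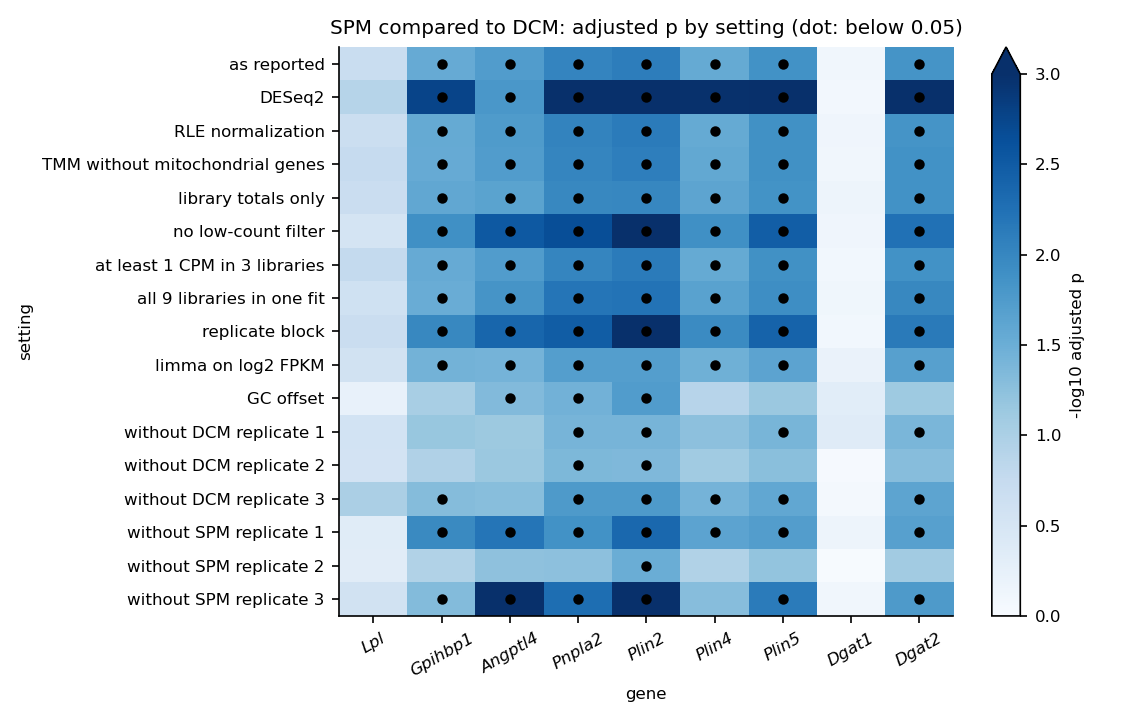
Adjusted p of each gene in SPM compared to DCM under the reported setting and 16 alternatives (colour, -log10 scale that saturates at 3; dots mark values below 0.05). Plin2 has a dot in every line, 7 genes have one in the reported setting, and 1 has one without SPM replicate 2.

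Other genes of these pathways were read by role. Of 48 listed by role, 42 had counts and 40 were tested. In DCM compared to CK 5 rose and 3 fell, 12.5% and 7.5% of the 40 against 5.28% and 5.11% of all genes, and the median log2 fold change was -0.10. None of the 3 falls was called without CK replicate 2, DCM replicate 1 or DCM replicate 3. Of the rises, those of Plin3, Cidea and Hsd17b11 were called with any library left out, that of Gpd1 was not without DCM replicate 2 or 3, and that of Furin was not without CK replicate 2 or 3 or DCM replicate 1 or 2. In SPM compared to DCM 2 rose and 9 fell, 5% and 22.5% against 8.87% and 7.76% of all genes, with a median of -0.12. None of these was called without SPM replicate 2, and with the GC offset none rose and 4 fell (Plin3, Hsd17b11, Abhd5 and Ldah), 10% against 1.84% of all genes. In SPM compared to CK 4 rose and 13 fell, 10% and 32.5% against 13.0% and 14.3% of all genes, with a median of -0.18. Without SPM replicate 2, 3 rose and 8 fell (7.5% and 20%), where 784 and 760 of 14897 genes did. With the GC offset 2 rose and 12 fell (5% and 30%), where 1495 and 1609 of 14574 genes did.

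Of 8 lipoprotein lipolysis genes tested, Furin, a protease that cleaves lipases and angiopoietin-like proteins, was the 1 that rose in DCM (0.31, SE 0.08, adjusted p = 0.0248), and Furin and Pcsk6 fell in SPM compared to DCM. These are 12.5% and 25.0% of the 8. Of all genes, 5.28% rose in DCM and 7.76% fell in SPM compared to DCM. The most abundant of the list, Apoe (an apolipoprotein that lipoprotein receptors bind), had 881 to 1122 CPM over the 9 libraries, and Vldlr (the receptor for very low density lipoprotein) had 361 to 471. Neither passed the test in any comparison as reported, but Vldlr in SPM compared to CK went from -0.15 to -0.31 with the GC offset (adjusted p = 0.0219) and to -0.24 with library totals (adjusted p = 0.0459), and in SPM compared to DCM from -0.11 to -0.32 with the GC offset. Of 8 droplet lipolysis genes, none rose and 1 fell in DCM, and 3 fell in SPM compared to DCM. These falls are 12.5% and 37.5% of the 8, where 5.11% and 7.76% of all genes fell. Ces1d, a carboxylesterase, fell in both, from 161, 164 and 177 CPM in CK to 133, 149 and 135 in DCM and 66.6, 93.6 and 115 in SPM (log2 fold changes -0.27 and -0.60, adjusted p = 0.0366 and 0.0292), and neither fall was called with the GC offset (-0.24 and -0.64, adjusted p = 0.0543 and 0.0542). Mgll, the monoacylglycerol lipase, had a difference of -0.18 in DCM compared to CK (adjusted p = 0.22) and fell by 0.28 in SPM compared to DCM (adjusted p = 0.0222), which was -0.16 and not called with the GC offset (adjusted p = 0.139). Abhd5, the coactivator of Pnpla2, had 44.9 to 46.0 CPM in DCM against 45.4 to 47.7 in CK, and fell to 37.5 to 39.6 in SPM (adjusted p = 0.046).

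Of 12 droplet coat and formation genes, 3 rose and 1 fell in DCM, and 1 rose and 3 fell in SPM compared to DCM. In DCM these are 25.0% and 8.33%, where 5.28% and 5.11% of all genes rose and fell. In SPM compared to DCM they are 8.33% and 25.0%, where 8.87% and 7.76% of all genes did. Plin3, a perilipin that moves between cytosol and droplets, had 252, 223 and 256 CPM in CK, 315, 394 and 329 in DCM, and 221, 244 and 259 in SPM, so that it rose by 0.50 (adjusted p = 0.0052) and fell by 0.51 (adjusted p = 0.013; 0.0577 without SPM replicate 2). Hsd17b11, a dehydrogenase of droplets, had 67.5, 67.5 and 72.5 in CK, 117, 108 and 115 in DCM, and 88.6, 95.9 and 97.3 in SPM. It rose by 0.71 (adjusted p = 7.93e-05) and fell by 0.27 (adjusted p = 0.0275) and, with the GC offset, had a larger difference (-0.43, adjusted p = 0.0206). Cidea, which helps droplets fuse, rose by 0.62 in DCM (adjusted p = 0.00226), with no call in SPM compared to DCM (-0.08). Fitm1, a membrane protein of droplet formation, fell in both, by 0.30 (adjusted p = 0.025) and by 0.44 (adjusted p = 0.00956), the second being -0.24 and not called with the GC offset (adjusted p = 0.061). Rab18, a small GTPase of droplets, rose by 0.29 in SPM compared to DCM (adjusted p = 0.0278).

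Of 12 triglyceride synthesis genes, 1 rose and 1 fell in DCM, and 1 rose and 1 fell in SPM compared to DCM. Each is 8.33% of the 12. Of all genes, 5.28% rose and 5.11% fell in DCM, and 8.87% rose and 7.76% fell in SPM compared to DCM, so these counts are near those shares. Gpam, which starts glycerolipid synthesis at mitochondria, had 320, 308 and 335 CPM in CK, 260, 275 and 261 in DCM, and 155, 203 and 241 in SPM. Its fall in DCM was 0.28 (adjusted p = 0.0251), and the further difference in SPM was -0.40 (adjusted p = 0.0529). Gpd1, which makes glycerol 3-phosphate, rose by 0.71 in DCM from a low level (4.01 to 6.11 CPM in CK and 7.70 to 9.15 in DCM, adjusted p = 0.0206). Gk, the kinase that makes it from glycerol, rose by 0.58 in SPM compared to DCM (adjusted p = 0.0131), and Agpat1, an acyltransferase, fell by 0.28 (adjusted p = 0.0319). Agpat3, of the same family, did not pass the test in any comparison (log2 fold changes 0.22, -0.13 and 0.08).

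**Figure D5:**
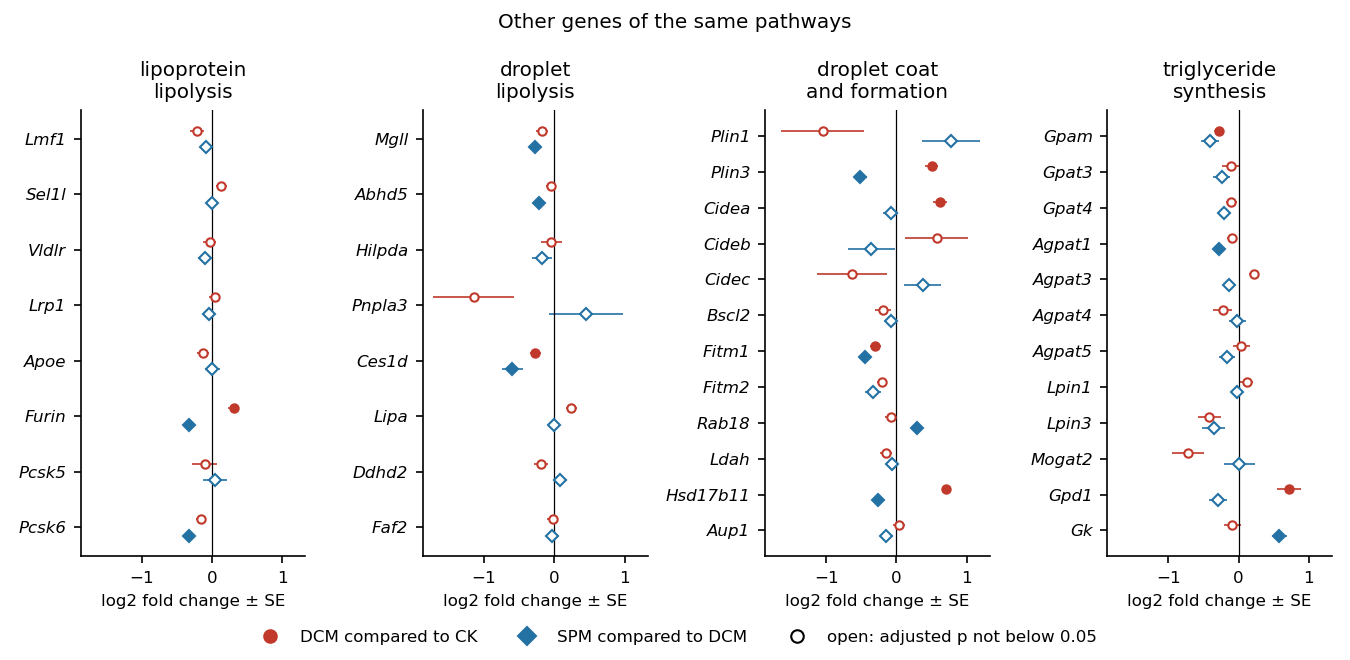
Log2 fold change ± SE of the other pathway genes tested, by role, in DCM compared to CK (red circles) and SPM compared to DCM (blue diamonds), filled at an adjusted p below 0.05 (edgeR, n = 3 libraries per group). Plin3 and Hsd17b11 are filled on the right in DCM and on the left in SPM, and Fitm1 and Ces1d are filled on the left in both.

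Markers of other cells that also store or handle lipid were read beside these results. Of 11 adipocyte markers, led by Cfd and Cidea, 6 were above 1 CPM in every library and Lep and Ucp1 were below 1 CPM in all. They summed to 82.1 to 238.0 CPM for CK, with CK replicate 2 highest, 89.3 to 128.2 for DCM and 113.3 to 167.9 for SPM. The part of the adipocyte markers in the results for the perilipins and Pnpla2 was not tested. Of these 11, 3 (Plin1, Cidec and Cidea) are also on the droplet coat list. Of the 9 adipocyte markers tested, 1 was higher and 8 were lower in DCM compared to CK (median log2 fold change -1.05). Cidea was the 1 that rose there, and none fell. In SPM compared to DCM 8 were higher and 1 was lower (median 0.51), and Car3 was the 1 that rose (1.76, adjusted p = 0.0246). The 8 liver markers, led by Alb and Cyp2e1, summed to 9.85 to 76.9 CPM for CK, 8.98 to 14.5 for DCM and 14.2 to 356.2 for SPM. Cardiomyocyte markers summed to 39804 to 44547, 37230 to 43771 and 32291 to 37743 CPM, and none passed the test in DCM compared to CK or in SPM compared to DCM, while in SPM compared to CK Tnnt2 rose and Tnni3 and Myh6 fell. Their part in the results was not tested. The 8 macrophage markers, led by Lyz2 and C1qa, summed to 667 to 869, 560 to 653 and 663 to 1103 CPM, and the 6 fibroblast markers, led by Dcn and Col3a1, to 1970.0 to 2065, 1335 to 1429 and 1576 to 1648. The 3 erythroid markers with counts, led by Hbb-bs and Hba-a1, summed to 1514 to 3557, 1310 to 3224 and 744 to 1276, and 5 skeletal muscle markers, led by Mylpf and Tnni2, to at most 4.90 CPM in any library. The part of the liver, macrophage, fibroblast and erythroid markers in the results for the storage genes was not tested.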

How the data were processed

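Heart RNA of 9 libraries was grouped by the deposited labels into CK, DCM and SPM. The authors deposited whole-number counts per gene, made from reads filtered with fastp 0.18.0. The authors also deposited FPKM values, which equal the count over 1 length per gene and over the library total (largest relative deviation 8.6e-13). The submitters' processing notes name Bowtie 0.12.2, mm8 and mm9 with no role; the counting tool, annotation and strand setting were not given in the sources used here. Of 22851 identifiers, 22820 matched a symbol in GENCODE M21 (GRCm38), which also gave the coordinates, so these are not of the authors' build.

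Groups were compared in pairs (6 libraries each) with edgeR 4.0.16 (R 4.3.3; filterByExpr, TMM, glmQLFit and its quasi-likelihood F test), with Benjamini-Hochberg adjustment over all genes tested. A gene rose or fell at an adjusted p below 0.05 and was a DEG at 1.5-fold as well, the limits in the study's methods. Normalized CPM are CPM of the TMM-scaled library, intervals are 95%, and the deposited FPKM were used for levels between genes. Total counts, 29901300 to 39718680, set the counting precision. Alternatives were DESeq2 1.42.0, RLE, TMM without mitochondrial genes, library totals, no filter, 1 CPM in 3 libraries, all 9 libraries together, the replicate number as a term, limma 3.58.1 on log2 of FPKM plus 0.1, a lowess GC offset (span 0.3) and each library left out. Data were simulated with 200 changed genes, drawn from genes above a count limit, with the same spread for all genes and independent libraries. In DCM compared to CK, 99.3% of changes of at least 2-fold in either direction and 56% of 1.5-fold rises were recovered (14484 genes, 11 false calls). These shares were 99.3% and 60% in SPM compared to DCM (14601 genes, 8 false calls). They were 98.7% and 58% in SPM compared to CK (14627 genes, 8 false calls). Real genes differ in spread, so the shares may not hold for them.

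The genes and lists were chosen with earlier results of these data known. Of the other pathway genes, those past both limits in DCM compared to CK or SPM compared to DCM and the 2 most abundant of each list were named, with the 2 most abundant markers of each cell type and the 3 genes most like Pnpla2, Angptl4 and Lpl. Furin, Pcsk6, Abhd5, Rab18, Gk and Agpat1 were named after their values were seen. Scripts used Python 3.11.15, numpy 2.4.6, pandas 2.3.3 and matplotlib 3.10.9.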

Additional observations from a re-analysis of the deposited data

How the results depend on the processing

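In DCM compared to CK, 5 of the 9 genes passed under all settings but 3, which gave 4 (limma on FPKM, without CK replicate 2 and without DCM replicate 2), and the count with a fold change of 1.5 was 3 or 4. In SPM compared to DCM, the 7 genes became 3 with the GC offset and 1 to 7 when a library was left out (4, 2 and 1 when it was DCM replicate 1, DCM replicate 2 and SPM replicate 2), and the 2 DEGs became 1 without any DCM library or without SPM replicate 2. In SPM compared to CK, the 5 genes became 3 to 5 with a library left out, 3 without SPM replicate 2, and the 1 DEG became 2 under library totals and limma on FPKM, with 1 to 2 over the libraries left out. The cause was not tested. Replicate numbers did not mark pairs of libraries (correlations of deviations -0.0745 to 0.205 for the same number and -0.284 to 0.218 for others), and the replicate block left the member counts at 5, 7 and 5, while over all genes SPM compared to DCM went from 1286 higher and 1124 lower to 1545 and 1265. Without TMM the median of all genes shifted by -0.09 in DCM compared to CK, and the calls there split 505 higher to 1368 lower, against 761 to 736, and 479 to 1156 with limma on FPKM; in SPM compared to CK they split 1274 to 3356 and 1212 to 3244, against 1900 to 2089. Without SPM replicate 2 SPM compared to DCM had 53 higher and 19 lower, without DCM replicate 2 117 and 77, and with the GC offset 180 and 267.

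Differences that changed sign did not pass the test on either side. Under library totals and limma on FPKM, in that order, they were -0.028 and -0.024 for Lpl and -0.0222 and -0.0222 for Dgat1 in DCM compared to CK, -0.0066 and -0.012 for Apoe in SPM compared to DCM, and -0.077 and -0.078 for Gpihbp1, -0.0657 and -0.0656 for Dgat1 and -0.0110 and -0.0116 for Agpat3 in SPM compared to CK. With the GC offset they were 0.013 for Vldlr in DCM compared to CK, -0.068 for Lpl, 0.10 for Dgat1 and 0.042 for Cidea in SPM compared to DCM, and 0.058 for Apoe and 0.047 for Plin3 in SPM compared to CK. Without that offset, Lpl in SPM compared to DCM was at 0.15 and Apoe in SPM compared to CK at -0.13. Apoe was also at -0.0058 in SPM compared to DCM without the filter and at -0.0023 with the replicate block. With each library left out, Lpl ran from -0.029 to 0.13 and Vldlr from -0.085 to 0.055 in DCM compared to CK, Apoe from -0.11 to 0.095 and Cidea from -0.16 to 0.038 in SPM compared to DCM, and Gpihbp1 from -0.077 to 0.11 and Plin3 from -0.079 to 0.041 in SPM compared to CK.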
